A study of Mus musculus with 6 samples.

Results

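Intermediate filament genes were examined in astrocytes of the upper and deep layers of the mouse somatosensory cortex. The set comprised 9 genes, each found by its symbol among the 43383 rows of the deposited table: Gfap, Vim, Nes, Synm and Des, which encode cytoplasmic filament proteins, Plec, which encodes the linker plectin, and Lmna, Lmnb1 and Lmnb2, which encode the nuclear lamins. RNA was sequenced from GFP-positive cells sorted by flow cytometry from Aldh1l1-eGFP mice, in which a reporter driven by Aldh1l1 regulatory sequence labels astrocytes. Upper-layer astrocytes (ULAs, layers II/III to IV) and deep-layer astrocytes (DLAs, layers V and VI) came from the same 3 brains of 4-week-old male mice, 1 library for each layer of each brain, with no other allele, agent or treatment in any library. The dissection left out the pial surface with layer I and the underlying white matter, and it kept a gap around the border of layers IV and V, so that the libraries represent grey matter away from these zones.

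Intermediate filaments are rope-like polymers that give a cell its mechanical resilience. In astrocytes the main subunit is glial fibrillary acidic protein (GFAP), which assembles with vimentin, and nestin and synemin join such filaments in immature or reactive cells. GFAP is best known as the marker that rises in reactive astrocytes, and in healthy grey matter many protoplasmic astrocytes contain little of it. Plakins such as plectin fasten the filaments to other structures. Lamins form the mesh beneath the inner nuclear membrane, where B-type lamins are found in nearly all cells and A-type lamins vary with cell type.

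The sequence before the start of Gfap is shown because Gfap was the member that passed the test below and because signal transducers of the STAT family are known regulators of this gene. Capitals mark the only match to the STAT site TTCCNGGAA (N is any base; the site reads the same on both strands). The stretch runs 5′ to 3′ on the minus strand, GRCm38.p6 chr11:102897181-102897450, from 250 bases before to 20 bases after the start that RefSeq gives.
Gfap promoter: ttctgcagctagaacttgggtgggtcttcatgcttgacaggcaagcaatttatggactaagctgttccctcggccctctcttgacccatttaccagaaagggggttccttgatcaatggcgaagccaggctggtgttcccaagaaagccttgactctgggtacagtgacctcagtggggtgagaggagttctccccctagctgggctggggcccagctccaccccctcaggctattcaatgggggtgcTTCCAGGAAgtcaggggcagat
The match covers positions -2 to +7, counted with +1 at that start and without a position 0. GENCODE has this start for the transcript Gfap-202, and Gfap-201 begins 69 bases further on, so the match lies before the start of Gfap-201. RefSeq windows of 300 bases (250 before and 50 after the start) were at hand for 7 of the 9 genes, in 9 windows, and no other member held the site, which occurred in 1.15% of 32851 mouse windows. The NFI half-site TTGGC, searched on both strands, occurred in Lmna, Lmnb2, Synm and Vim and in 46.7% of all windows. The BMP-type Smad site GGCGCC, whose letters can overlap TTGGC, occurred in Des and Lmnb2 and in 11.9% of all windows, and TATAAA occurred in Vim and in 13.6%. These matches describe letters and were not tested as binding sites.

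Values are RPKM, the reads on an mRNA divided by its length in kilobases and by the reads of the library in M, which put genes of different length on 1 scale. Depth was 24.5 to 26.7 M reads in the ULA libraries and 19.7 to 29.6 M in the DLA libraries. The 13999 rows with a mean of at least 1 RPKM entered a limma fit of log2(RPKM + 1) on brain and layer, and p-values were adjusted by the Benjamini-Hochberg method. At an adjusted p under 0.05, 100 genes were higher in ULAs (0.714% of those tested) and 128 in DLAs (0.914%), and quantile normalization gave 138 and 103. All 12 astrocyte markers passed the filter, and their summed level was 13260 to 14450 RPKM in ULAs and 12780 to 13970 in DLAs. Aldoc (mean 5126 RPKM) was the largest part of this sum, which hides markers that went both ways. Slc1a2, Slc1a3, Gja1 and Fgfr3 were higher in ULAs of all 3 brains, and Gjb6, S100b and Ndrg2 in DLAs. Of the 12, 0 passed the test, and 5 had an unadjusted p under 0.05 (limma), against 16.4% of all genes tested.

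Gfap was higher in DLAs in every brain, and it was the only 1 of the 9 genes whose ULA and DLA values did not overlap. Of the 9 genes, 4 passed the filter on low values (Gfap, Vim, Lmna and Lmnb2). Of these 4, 1 passed the test in DLAs and 0 in ULAs with limma, against backgrounds of 0.914% and 0.714%; at an unadjusted p under 0.05 there were 2, Gfap and Lmna, against 16.4% of all genes tested. Among the genes tested, 15.9% had ULA and DLA values that did not overlap.

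**Figure D1:**
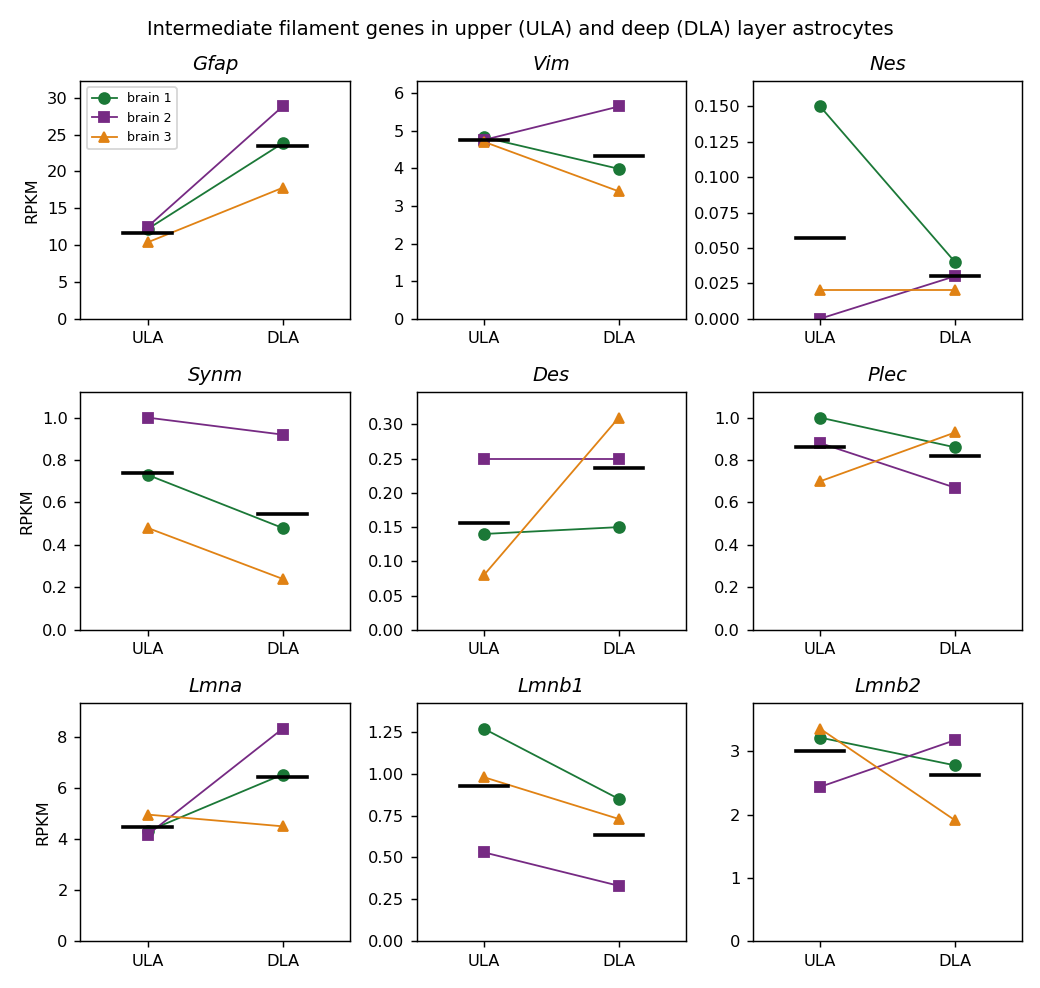
RPKM (y axis, from 0, scaled to each gene) of the 9 intermediate filament genes in ULAs and DLAs. Points are libraries, coloured lines join both layers of a brain, and black bars are the means of 3 libraries. Gfap lay between 10.4 and 12.5 RPKM in ULAs and between 17.8 and 28.8 in DLAs, whereas the ranges of the other 8 genes overlapped.

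Gfap (mm9 chr11:102748650-102758514, minus strand, 10 exons) was the most abundant member in all 6 libraries. ULAs of brains 1, 2 and 3 contained 12.2, 12.5 and 10.4 RPKM, from 1213, 1304 and 1127 reads. DLAs of the same brains contained 23.8, 28.8 and 17.8 RPKM, from 2578, 2307 and 2139 reads. The lowest DLA library therefore exceeded the highest ULA library, and the DLA libraries were spread more widely (23.5 ± 5.53 RPKM, mean ± SD, n = 3) than the ULA libraries (11.7 ± 1.15, n = 3).

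The DLA/ULA ratio of Gfap was 1.96 in brain 1 (95% exact counting interval 1.83 to 2.10), 2.31 in brain 2 (2.15 to 2.47) and 1.71 in brain 3 (1.59 to 1.84). The intervals, which cover counting error only, do not overlap between brains 2 and 3, so the ratio varied between library pairs by more than counting error. With 1 library for each layer of each brain, variation between animals cannot be told apart from that of dissection, sorting or library preparation. The log2 difference (ULA/DLA) was -0.93 with SE 0.12, adjusted p = 0.00556 with limma, and Gfap ranked 23 by p among the genes higher in DLAs. It stayed past the threshold in 10 of 12 alternatives, including the omission of any 1 brain (log2 differences -1.03 to -0.82). It missed the threshold when brain was left out of the model (adjusted p = 0.0994) and when no filter on low values was set (adjusted p = 0.301).

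The Gfap row joins 2 RefSeq transcripts, and its length of 4072 bases counts the exons of both. GENCODE on GRCm38 gives 2648 bases for Gfap-201 and 2600 for Gfap-202, which ends 2830 bases before Gfap-201. In the row, exon 8 from the 5′ end (1355 bases) has its end at the same distance from the 3′ end of the row. If all reads came from Gfap-201, its level would be 17.96 RPKM in ULAs and 36.1 in DLAs, with the same ratio between layers. The table does not separate the 2 transcripts. An uncharacterised row on the opposite strand, ENSMUSG00000091056, spans Gfap but shares 0 exon bases with it.

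Vim, which encodes the partner of GFAP in astrocyte filaments, did not follow Gfap. ULAs contained 4.83, 4.76 and 4.71 RPKM and DLAs 3.99, 5.65 and 3.39 in brains 1, 2 and 3. The ULA value was the higher one in brains 1 and 3 and the DLA value in brain 2, and the ranges overlapped. The log2 difference was 0.13 with SE 0.15 (adjusted p = 0.711, limma), and it lay between 0.01 and 0.30 over 11 alternatives. Vim is on chromosome 2 (mm9 chr2:13495938-13504453, plus strand) in a row of 9 exons and 1834 bases.

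Nes, encoding nestin of neural progenitors, was close to absent. It was listed at 0.15, 0 and 0.02 RPKM in ULAs and at 0.04, 0.03 and 0.02 in DLAs, and the highest of these values rested on about 23 reads. Since values are truncated, the listed 0 in the ULAs of brain 2 can stand for 0 reads or for 1. A count of 0 would allow up to 0.0191 RPKM (3 reads), and a count of 1 would allow more. Des, the desmin of muscle, was likewise low, at 0.14, 0.25 and 0.08 RPKM in ULAs and 0.15, 0.25 and 0.31 in DLAs, on 5 to 20 reads a library. Within single brains, the counting interval of the ratio lay off 1 for Nes in brain 1 (ULA/DLA 3.75, 1.48 to 9.86) and for Des in brain 3 (DLA/ULA 3.88, 1.31 to 12.3). In the other brains the layers were equal or nearly so, except for Nes in brain 2, where only DLAs had a listed value above 0.

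Synm, which encodes the large filament protein synemin, was present at 0.73, 1 and 0.48 RPKM in ULAs and at 0.48, 0.92 and 0.24 in DLAs. Every brain had more in ULAs, by 0.23, 0.06 and 0.26 on the log2(RPKM + 1) scale in brains 1, 2 and 3, and the ranges of the layers overlapped. Synm lay under the filter, and when rows with a mean of at least 0.5 RPKM were admitted, a setting chosen after the values were seen, its adjusted p was 0.623 (limma). Plec, whose row of 17515 bases joins 15 RefSeq transcripts, stood at 1, 0.88 and 0.70 RPKM in ULAs and at 0.86, 0.67 and 0.93 in DLAs. Its direction turned in brain 3, and its adjusted p under the lower filter was 0.949 (limma).

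Among the lamins, Lmna, which encodes lamins A and C, had the highest level. ULAs contained 4.31, 4.17 and 4.96 RPKM and DLAs 6.53, 8.33 and 4.50. Lmna was higher in DLAs of brains 1 and 2, by 1.51-fold (counting interval 1.32 to 1.74) and 1.998-fold (1.74 to 2.29), but not of brain 3, where the DLA/ULA ratio was 0.907 (0.793 to 1.04). The log2 difference over the 3 brains was -0.41 with SE 0.18 and did not pass (adjusted p = 0.293, limma). Without brain 3 it was -0.68 and passed (adjusted p = 0.0106, limma). In that fit 687 genes passed in DLAs against 128 with all brains, so the gained call was not particular to Lmna. Without brain 1 it was -0.37 and without brain 2 -0.19, and it did not pass (adjusted p = 0.787 and 0.697, limma).

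Lmnb2, encoding lamin B2, was measured at 3.22, 2.44 and 3.36 RPKM in ULAs and at 2.78, 3.18 and 1.91 in DLAs. The ULA value was the higher one in brains 1 and 3, and its log2 difference of 0.15 (SE 0.18, adjusted p = 0.715, limma) turned to -0.06 without brain 3. Lmnb1, encoding lamin B1, was measured at 1.27, 0.53 and 0.98 RPKM in ULAs and at 0.85, 0.33 and 0.73 in DLAs. Lmnb1 was higher in ULAs in 3 of 3 brains, with ULA/DLA ratios of 1.34 to 1.61, on 19 to 89 reads a library. Under the lower filter its log2 difference was 0.23 with an adjusted p of 0.505 (limma).

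**Figure D2:**
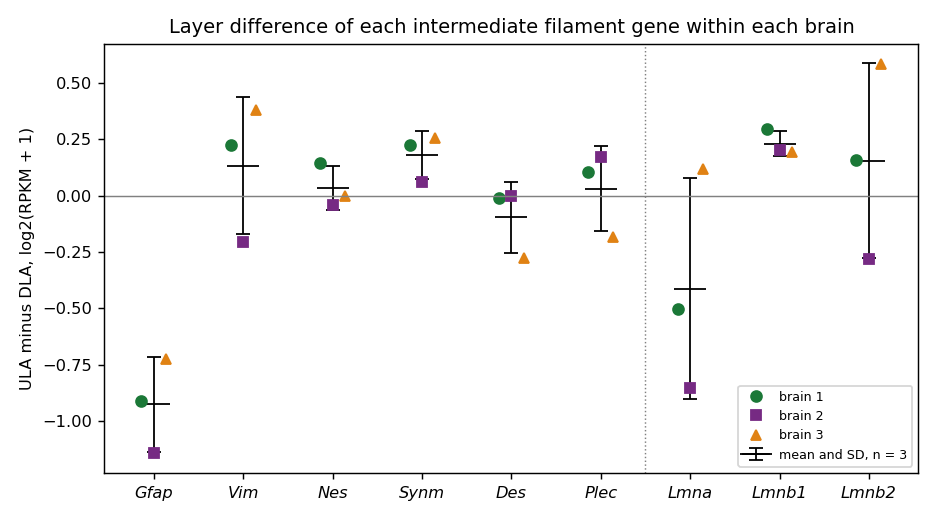
ULA minus DLA difference of log2(RPKM + 1) for each gene in each brain (points), with the mean and SD of the 3 brains (black). Cytoplasmic filament genes and Plec stand left of the dotted line and lamins right of it. The 3 points of Gfap lie between -1.14 and -0.72, and those of Lmna are split, at -0.50, -0.85 and 0.12.

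By mean level over the 6 libraries the order was Gfap (17.6 RPKM), Lmna (5.47), Vim (4.56), Lmnb2 (2.82), Plec (0.840), Lmnb1 (0.782), Synm (0.642), Des (0.197) and Nes (0.0433). Gfap exceeded Lmna, Vim exceeded Lmnb2 and Lmnb2 exceeded Plec in 6 of 6 libraries with ranges apart. The ranges of the other neighbours in this order overlapped. Gfap remained low beside genes typical of astrocytes, at 4.27% to 6.15% of the Aldh1l1 level in ULAs and 7.94% to 10.6% in DLAs.

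Proportions between the filament genes were computed within each library, a choice made after the members' values had been seen. Gfap made up 67.6%, 67.5% and 66.2% of the summed RPKM of Gfap, Vim, Nes, Synm and Des in ULAs of brains 1, 2 and 3, and 83.6%, 80.8% and 81.8% in DLAs. The Gfap/Vim ratio was 2.52, 2.62 and 2.20 in ULAs and 5.97, 5.10 and 5.24 in DLAs. Without Gfap, the sum of the other 4 genes was 5.72 ± 0.378 RPKM (SD, n = 3) in ULAs and 5.16 ± 1.51 RPKM (SD, n = 3) in DLAs, with overlapping ranges. The ratio of Lmna to the sum of Lmnb1 and Lmnb2 was 0.960, 1.40 and 1.14 in ULAs and 1.799, 2.37 and 1.70 in DLAs, higher in DLAs of all 3 brains and without overlap, although Lmna itself was not higher in DLAs of brain 3. Exact permutation tests of the Gfap share, the Gfap/Vim ratio and the lamin ratio each gave p = 0.25 paired and 0.1 unpaired. These are the smallest 2-sided values that 3 brains allow, so the tests cannot decide whether the layers differ. The measures had also been chosen with the values known.

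**Figure D3:**
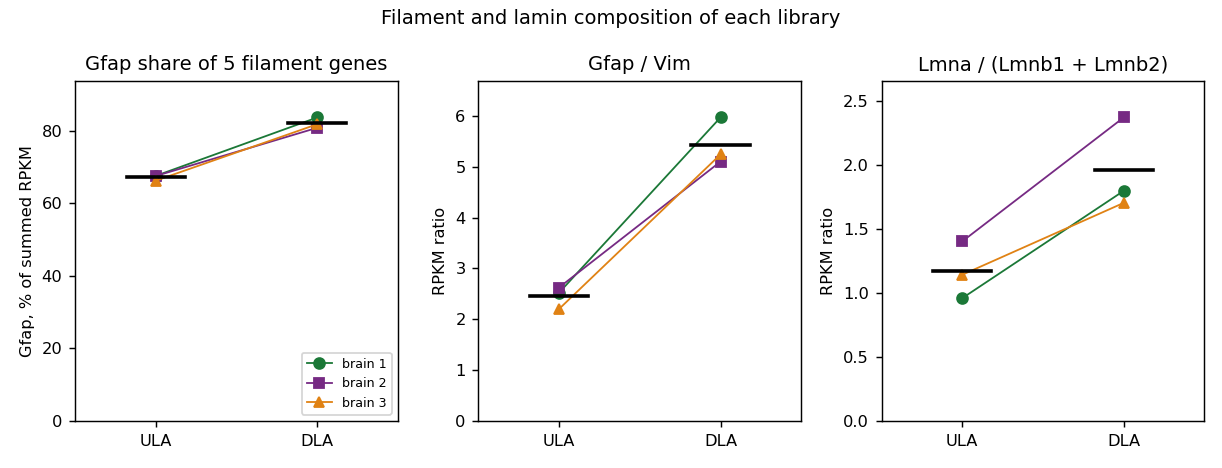
Gfap as a percentage of the summed RPKM of Gfap, Vim, Nes, Synm and Des (left), the Gfap/Vim ratio (middle) and the ratio of Lmna to Lmnb1 plus Lmnb2 (right) in each library. Lines join both layers of a brain, bars are means of 3 libraries and y axes start at 0. All 3 DLA points lie above all 3 ULA points in each panel: 80.8% to 83.6% against 66.2% to 67.6% on the left, and 1.70 to 2.37 against 0.960 to 1.40 on the right.

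Genes known to work with these filaments were taken from 5 lists. Of their 102 genes, 101 were in the table and 60 were tested, of which 1 was higher in ULAs and 0 in DLAs (limma), close to the shares of all genes tested (0.714% and 0.914%). At an unadjusted p under 0.05 there were 0 to 4 in a list, against 16.4% of all genes tested. Of 24 other intermediate filament genes, including neurofilaments, peripherin and keratins, 22 lay under the filter and 6 were at 0 in all libraries. Krt10, an epidermal keratin, averaged 10.6 RPKM and Iffo1, a nuclear filament-like protein, 8.87, and neither passed (log2 differences -0.20 and 0.07). The list median was -0.06, against -0.03 over all genes tested.

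Of the plakins and other partners of cytoplasmic filaments, 0 of 10 tested passed (median -0.02; 1 at an unadjusted p under 0.05). Dtna, the dystrobrevin of astrocyte endfeet, was the most abundant at 122.4 RPKM. Cryab, a small heat shock protein that binds GFAP filaments, came next at 77.3 RPKM. It was measured at 52.3, 65.3 and 75.0 RPKM in ULAs and at 82.5, 100.9 and 87.9 in DLAs, with no overlap, and it fell just short of the threshold (log2 difference -0.50, SE 0.11, adjusted p = 0.0624, limma). Cryab is also abundant in oligodendrocytes, whose markers were higher in DLAs.

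Of the lamin partners and nuclear envelope genes, 0 of 21 tested passed (median 0.02; 2 at an unadjusted p under 0.05). Tor1a, the torsin ATPase of the nuclear envelope, averaged 61.6 RPKM and Tmem43, an inner nuclear membrane protein, 50.6, with log2 differences of -0.04 and -0.09.

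Among 21 regulators of Gfap that were tested, 1 passed. Stat3, the transducer of IL-6 family cytokines, was present at 22.01, 20.9 and 20.8 RPKM in ULAs and at 15.6, 15.0 and 12.6 in DLAs, higher in ULAs of all 3 brains and thus opposite in direction to Gfap. Its log2 difference was 0.53 with SE 0.11 (adjusted p = 0.0492, limma). It no longer passed in 9 of 12 alternatives (adjusted p 0.052 to 0.339, limma) and passed in 3 (0.0273 to 0.0363). Fgfr3, a growth factor receptor of astrocytes, was the most abundant of the list at 264.6 RPKM, with a log2 difference of 0.41 (adjusted p = 0.057, limma). Sox9, a transcription factor of astrocytes, averaged 113.4 RPKM, with a log2 difference of -0.11, and both genes are also on the astrocyte list. The list median was 0.06, and 4 of the 21 genes had an unadjusted p under 0.05, near the 16.4% of all genes tested.

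Of 16 genes associated with fibrous or reactive astrocytes, 10 lay under the filter, among them Lcn2 and C3 at or near 0, and 0 of the 6 tested passed (median 0.04; 2 at an unadjusted p under 0.05, Cd44 and Aspg). Cd44, the hyaluronan receptor, was measured at 7.25, 6.38 and 5.64 RPKM in ULAs and at 3.36, 3.55 and 4.95 in DLAs, without overlap (log2 difference 0.59, SE 0.16, adjusted p = 0.115, limma). Aspg, an asparaginase, was measured at 9.74, 8.91 and 8.63 RPKM in ULAs and at 6.21, 7.81 and 4.51 in DLAs, also without overlap (log2 difference 0.52, SE 0.15, adjusted p = 0.124, limma). Both had more in ULAs of all 3 brains, the opposite direction to Gfap, but the 6 tested genes were split, with 3 in each direction. Tnc was higher in DLAs of all 3 brains and Serpina3n in DLAs of 2 (log2 differences -0.215 and -0.20), the direction of Gfap, without passing. Aqp4, the water channel of endfeet, averaged 211.5 RPKM and S100a6, a calcium-binding protein, 35.2, with log2 differences of 0.14 and -0.07.

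**Figure D4:**
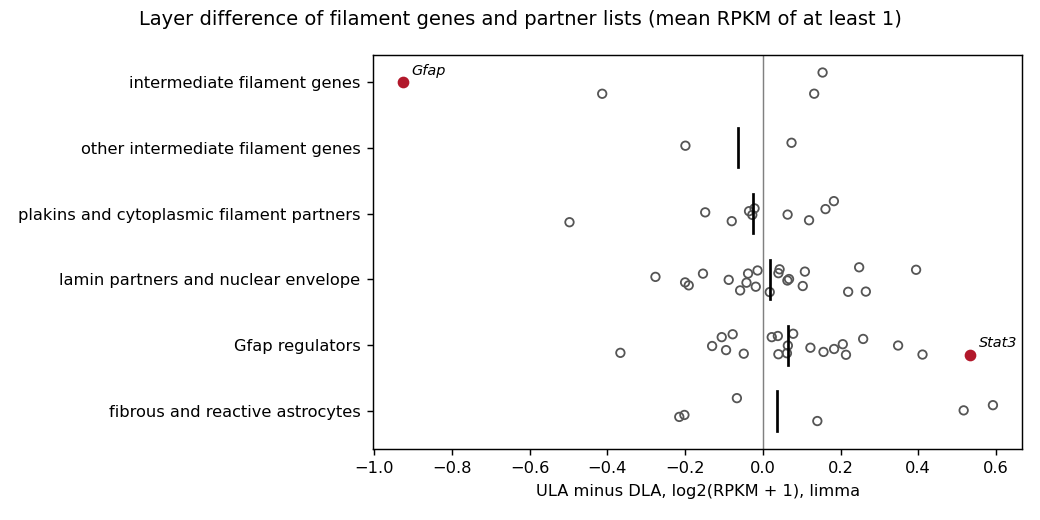
Log2 difference (ULA minus DLA, limma) of every tested gene of the 9 intermediate filament genes and of 5 lists of related genes, with red for an adjusted p under 0.05 and vertical bars at list medians. Gfap lies at -0.93 and Stat3 at 0.53, Cd44 and Aspg of the fibrous and reactive list lie at 0.59 and 0.52 without passing, and the list medians lie between -0.06 and 0.06.

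Other cell types in the sorted fractions were followed by their markers. Oligodendrocyte markers rose in DLAs for 8 of 10 tested (summed level 89.9 to 189.8 RPKM in ULAs and 184.8 to 300.5 in DLAs), among them Mbp of myelin. In both layers the library with the most oligodendrocyte marker RNA, that of brain 3, had the least Gfap. Of the erythrocyte genes 2 of 3, Hbb-b1 and Hbb-b2, were higher in DLAs, against 0.914% of all genes tested (sums of 0.81 to 1.07 and 4.70 to 32.6 RPKM). DLAs of brains 1, 2 and 3 contained 1.91, 2.34 and 15.17 RPKM of Hbb-b1 and 1.96, 2.4 and 15.57 of Hbb-b2. Allowing for row lengths of 626 and 610 bases, these values match, so both rows probably count the same reads. They cannot be taken as 2 separate signals, and the DLA sum probably holds these reads more than once. The ULA sum came from Alas2 alone. Brain 3 held the highest oligodendrocyte sum in both layers and the highest erythrocyte sum in DLAs. Within each brain, however, the DLA library had both more oligodendrocyte marker RNA and more Gfap. The order of the brains therefore does not bear on the difference between layers. Without brain 3 the log2 difference of Gfap was -1.03 (adjusted p = 1.96e-06, limma), in a fit where 687 genes passed in DLAs against 128 with all brains. The sum over 7 oligodendrocyte precursor genes was 85.4 to 96.9 RPKM in ULAs and 97.3 to 134.1 in DLAs, nearly all of it Olig1 and Olig2, with Pdgfra, the defining receptor, at 0 to 0.07 RPKM and 0 of 2 tested genes passed. The meningeal fibroblast sum was 3.11 to 4.10 RPKM in ULAs and 4.98 to 6.29 in DLAs, with 1 of 7 genes tested and 0 passed. Rgs5, a pericyte gene, was higher in ULAs (1.98, 2.06 and 2.70 RPKM against 1.01, 0.75 and 0.93; adjusted p = 0.0455, limma), the 1 of 3 tested pericyte and smooth muscle markers that passed. Sums of endothelial (1.76 to 2.67 and 1.28 to 4.68) and of pericyte and smooth muscle markers (18.04 to 26.1 and 13.4 to 21.6) overlapped, as did those of ependymal cells (90.3 to 115.2 and 107.4 to 112.3), of progenitor and proliferation genes (29.75 to 36.9 and 29.15 to 31.4) and of microglia (63.8 to 77.96 and 63.6 to 76.5). Neuronal sums were 11.02 to 12.2 RPKM in ULAs and 8.25 to 10.15 in DLAs. The part of these cells in the differences of Gfap, Lmna and Cryab was not tested, and in sorted bulk RNA a change in the number of cells that express a gene and a change in RNA per cell cannot be told apart.

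**Figure D5:**
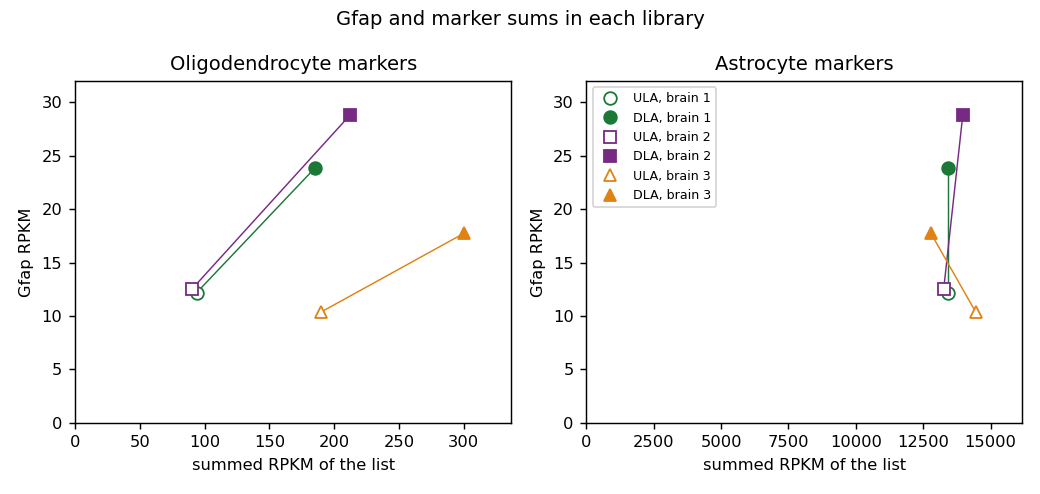
Gfap RPKM (y axis) against the summed RPKM of 11 oligodendrocyte markers (left) and 12 astrocyte markers (right) in each library, ULAs open and DLAs filled, with lines joining both layers of a brain. The oligodendrocyte sum and Gfap were both higher in DLAs of each brain, and brain 3 had the highest oligodendrocyte sum and the lowest Gfap in both layers.

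The genes whose pattern over the 6 libraries was most like that of Gfap were sought by the root mean square difference of centred log2(RPKM + 1) among 7914 genes with a RefSeq accession and a mean of at least 5 RPKM. They were Gm6277 (0.127), 1700003D09Rik (0.149), Ppp1r1b (0.15), Snord19 (0.183) and Pipox (0.187), against a median of 0.514. Ppp1r1b, the phosphatase inhibitor DARPP-32, had 23.0, 23.4 and 24.4 RPKM in ULAs and 46.1, 48.4 and 29.6 in DLAs, so that, as for Gfap, DLAs of brain 3 were the lowest of the DLAs. The rows of Ppp1r1b and 1700003D09Rik lie on opposite strands and share 164 exon bases, those of Gm6277 and Cables1 share 104, and the row of Snord19 is wholly repeated in another, so their reads cannot be assigned with certainty. Pipox, an oxidase of peroxisomes, had 8.13, 6.07 and 5.80 RPKM in ULAs and 17.9, 16.9 and 9.32 in DLAs. For Vim the nearest patterns were those of Atg7 (0.045), Gdpd2 (0.0494) and Pla2g6 (0.0575), against a median of 0.253 over 7915 genes. These rows share 269, 799 and 737 exon bases with rows on the opposite strand, so that their reads are uncertain too.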

How the data were processed

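RNA of GFP-positive cells was measured in 6 libraries (SMART-Seq v4 and Nextera XT kits, single reads of 36 bases). Per the labels, reads were handled with bcl2fastq 1.8.4 and CASAVA 1.8.2 on mm9. The aligner and counter are not given in the sources used here. The authors deposited RPKM values, truncated to 2 decimals, for 43383 rows with mRNA lengths. Reads per library were recovered from rows of up to 500 bases, where 100% of values were whole reads against at most 89.8% for the next best depth other than a multiple of 2, and give precision only. A value counted as whole when a whole number of reads, truncated like the table, gave its reads per M reads to the 2 decimals.

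The members and lists were chosen with earlier results of these data known. In limma 3.58.1 (R 4.3.3, lmFit and eBayes with trend), log2(RPKM + 1) was fitted on brain and layer for the 13999 rows whose mean reached 1 RPKM, with 2-sided p-values and a Benjamini-Hochberg threshold of 0.05. This scale compresses the fold changes of low genes. The replicate number was taken as the brain: same-numbered libraries departed from the mean of their layer in the same way (r over 13999 genes, which are not independent replicates, of 0.422, 0.333 and 0.341, and -0.199 to -0.160 for different numbers). The fit was tested on simulated data, where it missed many changed genes, above all those with small changes. A gene that did not pass can therefore still differ between layers. Count intervals are exact binomial (scipy 1.17.1), and figures were drawn with matplotlib 3.10.9.

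All 9 members are named. Of each list, genes that passed and the 2 with the highest mean are named; other genes named were chosen after their values were seen. Promoters are RefSeq windows (GRCm38.p6) and transcript lengths GENCODE M21; no coordinates were carried between builds. Total RNA had been extracted with either of 2 reagents, and which library had which is not given in the sources used here.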

Additional observations from a re-analysis of the deposited data

How the results depend on the processing

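Of the 9 members, Gfap passed in DLAs in 10 of 12 alternatives. Without the replicate block (brain left out of the model) its log2 difference was again -0.93 but 0 members passed in DLAs, 0 genes of the 5 lists passed in ULAs, and 23 genes passed in ULAs and 18 in DLAs over all rows tested. With no filter on low values the log2 difference of Gfap was -0.93, and 0 members, 0 genes of the lists and, over all 27963 rows, 0 genes passed in ULAs and 0 in DLAs (limma), with 2799 at an unadjusted p under 0.05. Without the trend 65 genes passed in ULAs and 79 in DLAs, and with the length correction 77 passed in DLAs. Leaving out 1 brain at a time gave 104 to 426 genes in ULAs, 126 to 687 in DLAs, 1 to 2 members in DLAs, and 0 to 4 list genes in ULAs and 0 to 1 in DLAs, with the highest counts in each case without brain 3 (426 and 687 genes, and Lmna as the second member).

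List genes in ULAs numbered 0 with a pseudocount of 0.1, median centring, no trend, the length correction and a mean of at least 0.5 RPKM, the last chosen after the data were seen, and 2 with a mean of at least 5 RPKM and with quantile normalization. List genes in DLAs numbered 1 with a mean of at least 5 RPKM. The log2 difference of Lmnb2 ranged from -0.06 to 0.37 when 1 brain was left out and was reversed, at -0.0611, without brain 3. The cause of these changes was not tested. The members in ULAs numbered 0 in all 12 alternatives. Depth limits Nes, Des, Lmnb1 and Synm most, with 0 to 203 reads a library as recovered from the truncated values, and 3 brains limit every test.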
